A study of Mus musculus with 14 samples.

Results

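Fibronectin, lysozyme, galectin-3, Ly6C and other products of monocytes and macrophages were followed through 7 purified populations of mouse blood cells on 14 single-colour oligonucleotide arrays, 2 per population. The set was chosen by gene symbol and holds 9 genes: Fn1, F13a1, Emilin2, Lyz2, Mpeg1, Ly6c1, Ly6c2, Aif1 and Lgals3. Of these 9 genes, 8 had at least 1 named probe, and their 11 probes are part of the 55681 probes, or 20284 named genes, of the larger of 2 array designs. Ly6c2 was matched by no probe's accession and has no value of its own here.

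All cells came from C57BL/6 mice. Granulocyte-monocyte progenitors (GMP) of bone marrow were taken from mice labelled IRF8KO and from wild-type (WT) mice. Monocyte and dendritic cell development in mice requires IRF8, an interferon regulatory factor that binds DNA together with partners such as PU.1. The labels name the genotype as IRF8KO and say no more on the allele. All other groups were wild type. Spleen gave 2 groups of classical dendritic cells (cDC), CD8+ and CD4+, and bone marrow gave neutrophils (Neu), the common dendritic cell progenitor (CDP) and the cDC precursor (pre-cDC). By their labels, GMP carried CD117 and CD16/32, without CD115, Sca-1, IL-7R or lineage markers. CDP were likewise without the last 3, with intermediate CD117 and with CD115 and CD135. Pre-cDC were lineage-negative cells with CD11c, CD135 and CD172a and without MHC class II, cDC were gated on CD11c, class II and either CD8 or CD4, and Neu on CD11b and high Ly6G. No gate names the product of a gene of the set, although what the lineage cocktail held is not in the labels. Monocytes, which the series title also names, were not analysed here, so none of the levels below is that of a monocyte. The labels do not say whether the 2 arrays of a group came from separate animals, and the p-values then measure only the spread between these samples.

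Monocytes and macrophages are phagocytes that clear microbes and dead cells, repair matrix and share a progenitor with neutrophils and dendritic cells. The genes of the set cover 3 roles. Fn1, F13a1 and Emilin2 encode secreted proteins of matrix and clotting: fibronectin, the A subunit of the transglutaminase factor XIII that crosslinks fibrin and fibronectin, and a glycoprotein of the EMILIN family. Lyz2 and Mpeg1 encode killing proteins, the M-type lysozyme that cuts bacterial cell walls and perforin-2, a pore former of phagocytes. Ly6c1, Ly6c2, Aif1 and Lgals3 are used as markers of monocytes or macrophages: the Ly6C surface antigens, the calcium- and actin-binding protein Iba1, and galectin-3, which binds beta-galactosides.

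Levels are given as log2 of the processed signal of a gene's brightest probe minus the 75th percentile of that array, so a level of 0 is the 75th percentile. They compare groups within a probe and not one gene with another. The 75th percentile itself ran from 88.8 on a CDP array to 582 on a WT GMP array among the 12 arrays of the larger design, on which 39.4% to 53.7% of probes were well above background. CD4+ cDC were run on the smaller design and entered no test. The probe for Irf8, the targeted gene, read 6.03 and 5.98 on the arrays labelled IRF8KO GMP, against 4.61 and 4.70 on the WT GMP arrays. It therefore did not read as a lost transcript on those arrays. Which exon it reads is not given in the files, so it cannot check the deletion, and IRF8KO below stands for the label. The 4 GMP arrays shared 1 slide, and the CD8+ cDC and Neu arrays shared another. For the comparisons across slides, slide and group cannot be told apart. The log2 of the summed signal of 16 neutrophil genes was 13.59 to 13.70 in Neu and at most 11.07 elsewhere, that of 13 classical dendritic cell genes 10.72 to 10.95 in CD8+ cDC and at most 8.17 elsewhere, and that of 8 progenitor genes 10.78 to 11.13 in both GMP groups and at most 10.38 elsewhere, in CDP. The neutrophil and progenitor lists share Mpo, Elane, Prtn3 and Ctsg, so their sums are not independent. The dendritic cell list holds genes of gate markers (Itgax, Flt3, H2-Ab1, Cd4 and Cd8a), and the progenitor list holds Kit. Part of these sums was therefore set by the sort. Detection alone did not set the groups apart, since all 8 progenitor genes were well above background in Neu too. In bulk samples, fewer cells of a type and less RNA per cell cannot be told apart.

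Both Ly6c genes and both lysozyme genes are near-identical neighbours, so a probe named for one copy may also have read the other, and their values are uncertain in that sense. The 250 bases before the start of each pair, from RefSeq on build GRCm38.p6, are shown because they are where the copies differ in sequence that no probe of mature RNA reads. Capitals mark matches to 1 of 6 motifs searched on both strands: GAGGAA (the core bound by PU.1), TTGCNNAA (C/EBP), GGAANNGAA (an ETS and IRF composite), GAAANNGAA (the core of an interferon-stimulated response element), TGANTCA (AP-1) and TATAAA. The PU.1 core and the composite can overlap, as can the composite and the response element core, but none of these overlaps occurred in the windows shown. Ly6c1 stands at chr15:75048838-75049087, minus strand, and Ly6c2 at chr15:75111972-75112221, minus strand.
Ly6c1: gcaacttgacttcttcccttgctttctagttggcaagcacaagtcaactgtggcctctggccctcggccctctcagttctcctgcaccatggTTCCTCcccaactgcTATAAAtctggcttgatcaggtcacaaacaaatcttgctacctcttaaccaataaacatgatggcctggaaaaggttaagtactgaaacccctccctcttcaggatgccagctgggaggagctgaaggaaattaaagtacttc
Ly6c2: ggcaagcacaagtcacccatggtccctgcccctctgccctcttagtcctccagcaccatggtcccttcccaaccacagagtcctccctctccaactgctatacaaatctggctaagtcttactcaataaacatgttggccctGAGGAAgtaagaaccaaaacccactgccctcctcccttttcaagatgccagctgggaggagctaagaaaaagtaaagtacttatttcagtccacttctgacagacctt
The pair had 164 identical bases over 216 aligned, or 75.9%. Lyz2 stands at chr10:117282273-117282522, minus strand, and Lyz1, which encodes the P-type lysozyme, at chr10:117292869-117293118, minus strand.
Lyz2: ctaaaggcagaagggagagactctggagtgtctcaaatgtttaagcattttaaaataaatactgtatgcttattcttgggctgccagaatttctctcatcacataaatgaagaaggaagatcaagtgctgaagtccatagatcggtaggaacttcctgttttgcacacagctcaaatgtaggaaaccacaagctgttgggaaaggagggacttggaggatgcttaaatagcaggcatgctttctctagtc
Lyz1: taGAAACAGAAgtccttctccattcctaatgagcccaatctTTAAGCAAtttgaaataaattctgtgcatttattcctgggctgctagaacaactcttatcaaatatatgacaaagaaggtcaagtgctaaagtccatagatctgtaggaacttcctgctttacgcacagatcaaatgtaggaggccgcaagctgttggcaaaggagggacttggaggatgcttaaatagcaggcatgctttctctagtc
The lysozyme pair had 200 identical bases over 248, or 80.6%, and the C/EBP motif lay in the Lyz1 window alone of these 2, at 209 bases before the start. The Lyz1 window also held the response element core, at -248. GAGGAA lay at -158 (on the minus strand of the window) in Ly6c1 and at -108 in Ly6c2.

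Aif1 and Emilin2 are shown because their windows hold the GAAANNGAA motif. Aif1 stands at chr17:35176053-35176302, minus strand, and the more upstream of the 2 Emilin2 windows at chr17:71311557-71311806, minus strand.
Aif1: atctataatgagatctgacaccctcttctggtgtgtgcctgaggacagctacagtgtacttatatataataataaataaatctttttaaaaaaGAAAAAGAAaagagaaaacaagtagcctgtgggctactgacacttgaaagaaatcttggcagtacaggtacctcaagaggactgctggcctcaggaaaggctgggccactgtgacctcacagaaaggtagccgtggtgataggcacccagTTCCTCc
Emilin2: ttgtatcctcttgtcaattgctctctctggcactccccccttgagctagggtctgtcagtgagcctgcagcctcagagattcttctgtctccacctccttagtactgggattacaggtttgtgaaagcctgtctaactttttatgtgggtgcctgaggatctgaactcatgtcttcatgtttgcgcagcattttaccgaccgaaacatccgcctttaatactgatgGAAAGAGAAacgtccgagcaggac
Of the 9 genes, 8 had a promoter in the RefSeq table, with 12 windows between them. F13a1, Emilin2, Ly6c1 and Ly6c2 have 2 windows each, and those of the Ly6c genes overlap. GAGGAA was found in 6 of the 12 windows, against 23.3% of all 32851 windows of the same length, GAAANNGAA in 2 of 12, against 7.13%, GGAANNGAA in 1 of 12, against 6.99%, and TATAAA in 1 of 12, against 12.4%. TTGCNNAA and TGANTCA were in none of the 12, against 9.56% and 6.75% of all windows. The 6 windows with GAGGAA include both windows of each Ly6c gene. In Ly6c2, 1 match was counted in both overlapping windows, at -108 and at -142. A match describes letters and is not a site.

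Fn1 was highest in the dendritic cell precursors. Its level was -2.02 and -2.20 on the IRF8KO GMP arrays and -3.21 and -3.54 on the WT GMP arrays. It was 3.53 and 3.60 in CDP, 4.99 and 4.87 in pre-cDC, -3.87 and -3.41 in CD8+ cDC, and -1.44 and -1.55 in Neu. Both WT GMP arrays and 1 CD8+ cDC array were not well above background, and no 2 neighbouring groups in this order overlapped, apart from WT GMP and CD8+ cDC, which are both dim and were not tested against each other because neither was measured on both arrays. F13a1 stood at 6.07 and 6.22 in IRF8KO GMP, against 4.18 and 4.32 in WT GMP. It read 7.92 and 7.87 in CDP, 5.28 and 5.23 in pre-cDC, -5.25 and -4.48 in CD8+ cDC, and -1.87 and -1.32 in Neu. CDP were highest, and on both CD8+ cDC arrays F13a1 was not well above background. Emilin2 had levels of 3.91 and 3.82 in IRF8KO GMP and 4.67 and 4.65 in WT GMP. The values were 4.32 and 4.22 in CDP, 5.13 and 5.18 in pre-cDC, -1.22 and -1.35 in CD8+ cDC, and 7.50 and 7.57 in Neu. Neu stood above every other group and CD8+ cDC below, with the 4 progenitor and precursor groups between.

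Lyz2 was at 2.45 and 2.31 in IRF8KO GMP and at 1.37 and 1.42 in WT GMP. It stood at 0.62 and 0.90 in CDP, 3.15 and 3.17 in pre-cDC, 1.87 and 1.92 in CD8+ cDC, and 7.83 and 8.15 in Neu. Neu were far above the rest, and CDP were lowest. Mpeg1 had 3.65 and 3.58 in IRF8KO GMP, against 2.57 and 2.51 in WT GMP. Its levels were 7.01 and 7.06 in CDP, 7.25 and 7.21 in pre-cDC, 8.39 and 8.39 in CD8+ cDC, and 6.01 and 6.08 in Neu. CD8+ cDC were highest and WT GMP lowest, and no 2 groups overlapped.

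Ly6c1 read 7.94 and 7.93 in IRF8KO GMP, against 7.29 and 7.25 in WT GMP. The gene had 8.71 and 8.77 in CDP, 8.40 and 8.45 in pre-cDC, 3.06 and 3.05 in CD8+ cDC, and 10.2 and 10.3 in Neu. Only CD8+ cDC, of the 6 groups, stood far below the others. Aif1 was not well above background on the IRF8KO GMP arrays, at -6.18 and -5.72, against -1.53 and -1.62 in WT GMP. The gene stood at 4.51 and 4.57 in CDP, 4.79 and 4.86 in pre-cDC, 7.72 and 7.51 in CD8+ cDC, and -0.004 and -0.06 in Neu. CD8+ cDC were highest and the IRF8KO GMP arrays lowest. Lgals3 had -1.88 and -1.89 in IRF8KO GMP and -0.54 and -0.57 in WT GMP. Its levels were 6.01 and 6.11 in CDP, 7.27 and 7.37 in pre-cDC, 7.42 and 7.37 in CD8+ cDC, and 9.11 and 9.22 in Neu. Both GMP groups stood far below all others, and pre-cDC and CD8+ cDC overlapped.

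**Figure D1:**
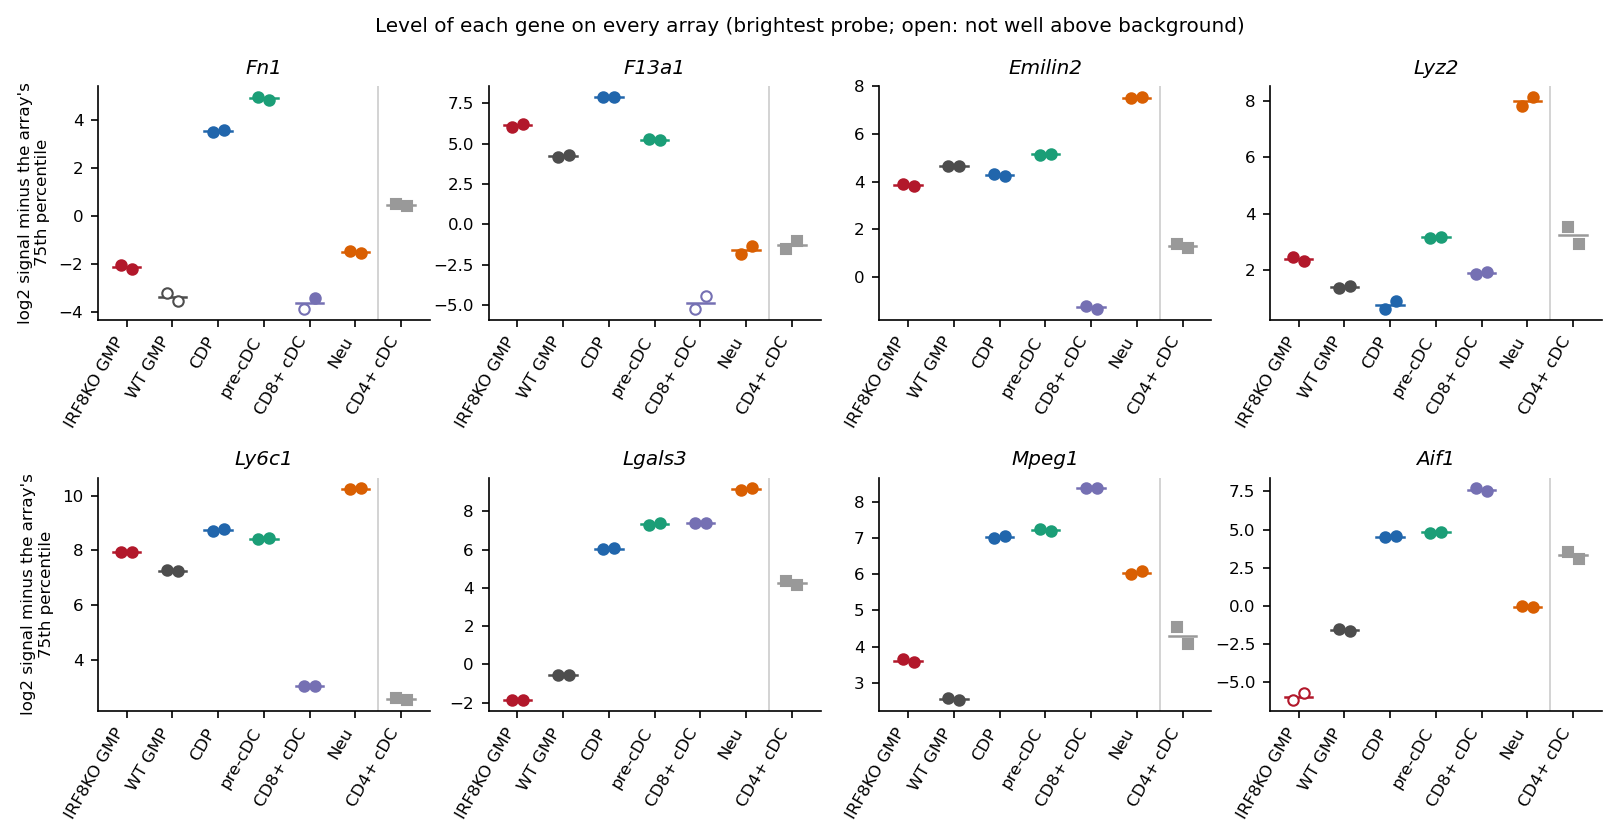
Level of each of the 8 measured genes on every array, as log2 signal of the brightest probe minus the array's 75th percentile (y axis, own range per gene), in the 7 groups (x axis). Points are single arrays, bars are group means, open points were not well above background, and squares right of the line are CD4+ cDC on the smaller array design. Lyz2, Lgals3, Ly6c1 and Emilin2 were highest in Neu, Aif1 and Mpeg1 in CD8+ cDC, F13a1 in CDP and Fn1 in pre-cDC.

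The highest group thus differed between the genes. It was Neu for 4 genes (Lyz2, Lgals3, Ly6c1 and Emilin2), CD8+ cDC for 2 (Aif1 and Mpeg1), CDP for F13a1 and pre-cDC for Fn1. Over the 6 groups, the distance between the highest and the lowest mean was 13.56 on the log2 scale for Aif1 and 12.76 for F13a1, though both low ends were not well above background, so the order of these 2 is not known. It was 11.05 for Lgals3, 8.82 for Emilin2, 8.57 for Fn1 (with 1 of the 2 low arrays not well above background), 7.23 for Lyz2, 7.20 for Ly6c1 and 5.85 for Mpeg1. The median SD between the 2 arrays of a group was 0.03 to 0.11. Of the 40 pairs of neighbouring groups in these orders, 3 were not called in limma's fit: Aif1 in pre-cDC and CDP, Lgals3 in CD8+ cDC and pre-cDC, and the untested Fn1 pair.

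The comparison of IRF8KO GMP with WT GMP asks how these genes stand in 1 progenitor gate when the IRF8 gene is targeted. F13a1 rose by 1.89 ± 0.26 on the log2 scale (SE of limma's fit, n = 2 arrays per group here and below), with adjusted p = 0.00238. Mpeg1 rose by 1.08 ± 0.06 (adjusted p = 4.74e-05), Lyz2 by 0.99 ± 0.13 (adjusted p = 0.00189) and Ly6c1 by 0.67 ± 0.06 (adjusted p = 0.00025). Fn1 was at least 2.395-fold higher (adjusted p = 0.00209), a bound because WT GMP were not well above background. The 3 others moved the opposite way. Aif1 was at least 6.3-fold lower (adjusted p = 4.27e-06), with IRF8KO GMP not well above background. Lgals3 fell by 1.33 ± 0.07 (adjusted p = 3.43e-05) and Emilin2 fell by 0.80 ± 0.08 (adjusted p = 0.000395).

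All 8 measured genes were called here (5 higher and 3 lower), against 21.1% of the 12156 genes tested (12.5% higher and 8.59% lower). Their median change was 0.83, against 0.03 for all genes tested. The set was chosen with earlier results of these data known, so these counts and medians describe it and are no test. Fn1 and Aif1 were tested only because the group where they were higher passed background on both arrays, which favoured the direction of their calls. This also holds below for Fn1 against WT GMP, and for Fn1 and F13a1 in both CD8+ cDC comparisons. Within the slide, from the 4 GMP arrays alone, all 8 kept their call, with adjusted p from 0.0102 to 0.0386. Other cell types' genes moved in the same comparison. Of the 15 neutrophil genes tested, 10 were higher and none lower, with 15 of 16 well above background on the IRF8KO GMP arrays and 10 or 11 on the WT GMP arrays. The log2 of their summed signal was 11.04 to 11.07 in IRF8KO GMP and 10.72 to 10.78 in WT GMP. The progenitor list, which shares Mpo, Elane, Prtn3 and Ctsg with them, had sums of 11.10 to 11.13 in IRF8KO GMP and 10.78 to 10.83 in WT GMP. All 8 erythroid and megakaryocyte genes were lower, with sums of 4.89 to 4.92 in IRF8KO GMP and 7.14 to 7.17 in WT GMP. All 7 basophil, mast cell and eosinophil genes were lower too, with sums of 5.48 to 5.55 in IRF8KO GMP and 7.12 to 7.14 in WT GMP. The part of these cell types in the results was not tested.

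Of the other monocyte and macrophage genes listed, 25 were tested, of which 12 were higher and 5 lower in IRF8KO GMP (median 0.53). The chemokine receptor gene Ccr2 rose by 2.41 ± 0.21 (adjusted p = 0.000258) and Adgre1, the gene of the macrophage antigen F4/80, by 2.10 ± 0.07 (adjusted p = 3.72e-06). Ly86, which encodes the Toll-like receptor partner MD-1, was at least 169.9-fold lower (adjusted p = 1.5e-06), as the IRF8KO GMP arrays were not well above background. Klf4, a transcription factor gene of monocytes, fell by 1.02 ± 0.09 (adjusted p = 0.000292). The list thus held rises and falls, as the 8 genes did. Among 22 tested relatives and partners of the set, 5 were higher and 7 lower. Lyz1 rose by 1.02 ± 0.08 (adjusted p = 0.000145), close to Lyz2, and the Ly6 family gene Ly6i was at least 2.35-fold higher (adjusted p = 0.0198, and 0.0595 to 0.109 when any 1 of the 4 GMP arrays was left out). Mmrn1, the gene of the EMILIN relative multimerin-1, fell by 2.47 ± 0.18 (adjusted p = 0.000113) and the transglutaminase gene Tgm2 fell by 1.54 ± 0.36 (adjusted p = 0.0233, and 0.0758 to 0.118 when any 1 of the 4 was left out).

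**Figure D2:**
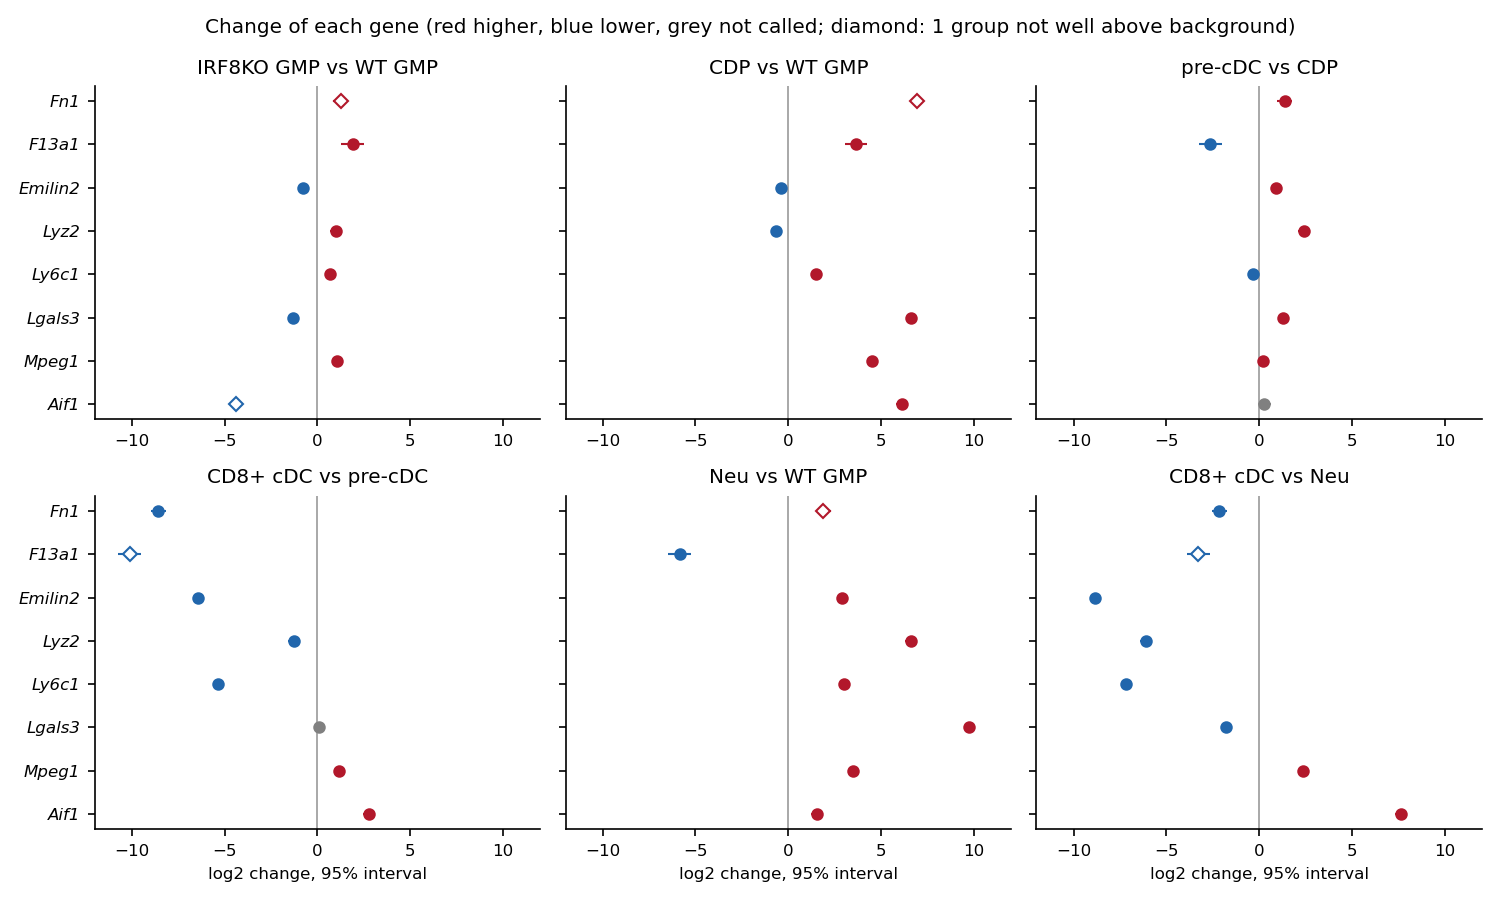
Log2 change of each gene in the 6 comparisons (x axis), with the 95% interval of limma's fit as bars, which are shorter than the symbols for some genes. Red is higher and blue lower in the group named first, grey is not called, and diamonds have a group not well above background. A diamond marks the measured change, which equals the at-least fold of the text for Fn1 only. In CD8+ cDC against Neu, Mpeg1 and Aif1 were higher and the other 6 genes lower.

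CDP against WT GMP compares the dendritic cell progenitor with the broader myeloid one. Of the 8 genes, 6 were higher in CDP. Fn1 was at least 122.5-fold higher (limma's adjusted p = 7.33e-08). Lgals3 rose by 6.61 ± 0.07 (adjusted p = 4.95e-09), Aif1 by 6.12 ± 0.15 (adjusted p = 6.88e-08) and Mpeg1 by 4.49 ± 0.06 (adjusted p = 1.11e-08). F13a1 rose by 3.64 ± 0.26 (adjusted p = 8.4e-06) and Ly6c1 by 1.47 ± 0.06 (adjusted p = 4.75e-07). Both genes that fell did so slightly: Lyz2 fell by 0.64 ± 0.13 (adjusted p = 0.00266) and Emilin2 fell by 0.40 ± 0.08 (adjusted p = 0.00183). The count was 6 higher and 2 lower of 8, against 76.4% of 11899 genes called in either direction (50.2% higher and 26.2% lower), so being called is common in this comparison. The split of all calls, 5973 higher and 3113 lower, was 3645 and 5409 when arrays were scaled on probes detected throughout, and 4482 and 4168 after quantile normalization. The median change of the 8 was 4.07 and that of all genes tested 0.29. Of the other monocyte and macrophage genes, 21 of 24 tested were higher and 2 lower, with a median of 2.55. Lgmn, which encodes the lysosomal protease legumain, rose by 7.64 ± 0.20 (adjusted p = 8.85e-08) and Klf4 by 6.18 ± 0.09 (adjusted p = 1.27e-08), while the chemokine gene Ccl9 fell by 0.53 ± 0.08 (adjusted p = 0.000441). The proteoglycan gene Vcan fell by 0.51 ± 0.16 (adjusted p = 0.0224), but was 0.38 higher after normexp background correction (adjusted p = 0.00911) and was not called without the second WT GMP array (adjusted p = 0.127) or the second CDP array (adjusted p = 0.104).

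The relatives and partners moved mostly the other way in CDP, with 5 higher and 12 lower of 22 tested. Ly6d was at least 78.3-fold higher (adjusted p = 3.91e-07) and Itgb7, an integrin chain gene, rose by 4.55 ± 0.08 (adjusted p = 2.36e-08). Mmrn1 fell by 2.70 ± 0.18 (adjusted p = 5.67e-06) and Emilin1 fell by 2.50 ± 0.25 (adjusted p = 5.62e-05), while the other 2 EMILIN relatives listed, Emilin3 and Mmrn2, were not well above background and were not tested. Lyz1, with a change of -0.10 ± 0.08 (adjusted p = 0.271), was not called where Lyz2 was, but it was called lower under 4 alternatives, with changes of -0.59 to -0.43 (adjusted p = 0.000195 to 0.000773). All 8 erythroid and megakaryocyte and all 7 basophil, mast cell and eosinophil genes were lower in CDP. So were 8 of 11 neutrophil genes tested, from a list that shares Mpo, Elane, Prtn3 and Ctsg with the progenitor list. The part of these lists was not tested. Erythroid sums were 3.83 to 3.94 in CDP and 7.14 to 7.17 in WT GMP, and sums of basophil, mast cell and eosinophil genes were 2.07 to 2.24 in CDP and 7.12 to 7.14 in WT GMP.

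**Figure D3:**
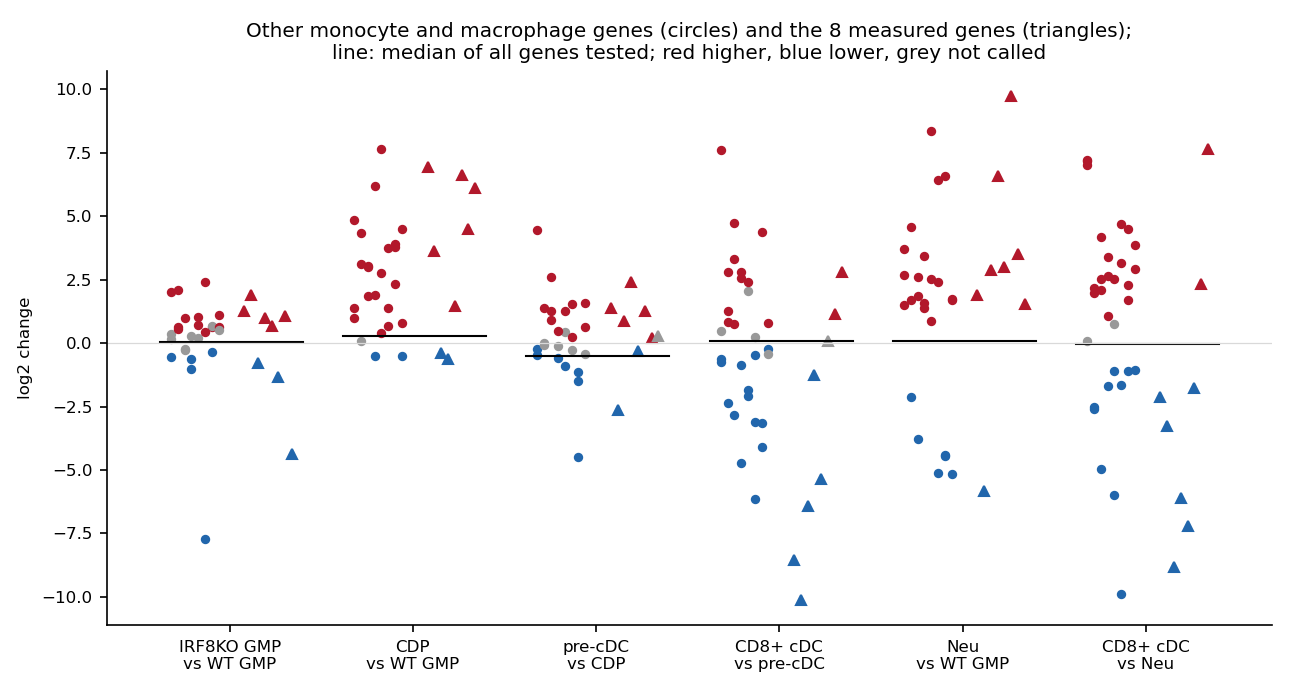
Log2 change (y axis) of the other monocyte and macrophage genes tested (circles) and of the 8 measured genes (triangles) in the 6 comparisons (x axis). Red is higher, blue lower and grey not called, and the black line is the median of all genes tested. In CDP against WT GMP, 21 of 24 circles are higher, while in CD8+ cDC against pre-cDC 12 are higher and 14 lower.

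Pre-cDC follow CDP in dendritic cell development. Lyz2 rose by 2.40 ± 0.13 (limma's adjusted p = 1.93e-06), Fn1 by 1.37 ± 0.17 (adjusted p = 0.000149), Lgals3 by 1.26 ± 0.07 (adjusted p = 2.45e-06) and Emilin2 by 0.89 ± 0.08 (adjusted p = 1.75e-05). F13a1 fell by 2.64 ± 0.26 (adjusted p = 4.06e-05). Markers of neutrophils, the group in which Lyz2, Lgals3 and Emilin2 were highest, moved in the same comparison, with 9 of 13 tested higher and 4 lower (median 3.62). Among those higher, the calprotectin gene S100a9 was 6.52 higher, and S100a8, of the same complex, at least 81.7-fold higher. Of the 16 neutrophil genes, 12 or 13 were well above background in pre-cDC and 8 in CDP, while the log2 of their summed signal was 8.74 to 8.76 in pre-cDC and 10.38 to 10.41 in CDP. The progenitor list shares Mpo, Elane, Prtn3 and Ctsg with the neutrophil list. Of its 8 genes, 7 were lower and 1 higher (median -2.28), with sums of 7.28 in pre-cDC and 10.35 to 10.38 in CDP. Plasmacytoid dendritic cell genes had 5 of 6 tested higher and none lower (median 1.59). Basophil, mast cell and eosinophil genes had 4 of 5 tested higher and none lower (median 1.86). The part of these lists in the results was not tested. The 5 changes of the set above kept their direction and call under all scalings tried. The other 3 were small and did not. Mpeg1 was higher by 0.195 ± 0.06 (adjusted p = 0.0223) but was -0.32 (adjusted p = 0.0712) when arrays were scaled on their medians, and was not called without the first CDP array (adjusted p = 0.1) or without the first pre-cDC array (adjusted p = 0.0823). Ly6c1 was lower by 0.31 ± 0.06 (change -0.31, adjusted p = 0.00135) but was 0.59 higher after quantile normalization (adjusted p = 9.99e-06). Aif1 differed by 0.29 (95% interval -0.06 to 0.63, adjusted p = 0.104) and was not called, but it was called higher under 4 alternatives, with changes of 0.52 to 0.83 (adjusted p = 0.000148 to 0.00183), and was -0.23 with array medians (adjusted p = 0.145).

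Of the 8 genes, 5 were higher, 2 lower and 1 not called in pre-cDC, against 82.6% of 11481 genes called (24.6% higher and 58% lower), a share like that of the set. All calls split into 2828 higher and 6655 lower, but into 4543 and 4322 when scaled on probes detected throughout, and into 1542 and 7987 with array medians. The median change of the 8 was 0.59 and that of all genes -0.50, and the median of all genes moved with the scaling, between -1.01 with array medians and 0.01 with a percentile over the probes that every array detected. Among 24 tested monocyte and macrophage genes, 11 were higher and 7 lower, a split that turned to 7 higher and 11 lower with array medians. Nr4a1, a transcription factor gene of patrolling monocytes, rose by 4.47 ± 0.08 (adjusted p = 1.42e-07) and the chemokine gene Ccl6 by 2.61 ± 0.07 (adjusted p = 4.1e-07). Thbs1, the gene of the matrix protein thrombospondin-1, was at least 5.81-fold lower (adjusted p = 2.22e-06). Csf1r, which encodes the CDP gate marker CD115, differed by -1.48 ± 0.06 and is no finding. Of 20 relatives and partners tested, 10 were higher and 4 lower, or 4 higher and 7 lower with array medians. Ly6d rose by 4.17 ± 0.27 (adjusted p = 4.32e-06), Sdc4, the gene of the fibronectin-binding proteoglycan syndecan-4, was at least 1.51-fold higher (adjusted p = 2.85e-05, but 0.961 after normexp correction), Mmrn1 was at least 1.96-fold lower (adjusted p = 1.45e-05) and the galectin gene Lgals8 fell by 1.35 ± 0.10 (adjusted p = 7.01e-06).

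**Figure D4:**
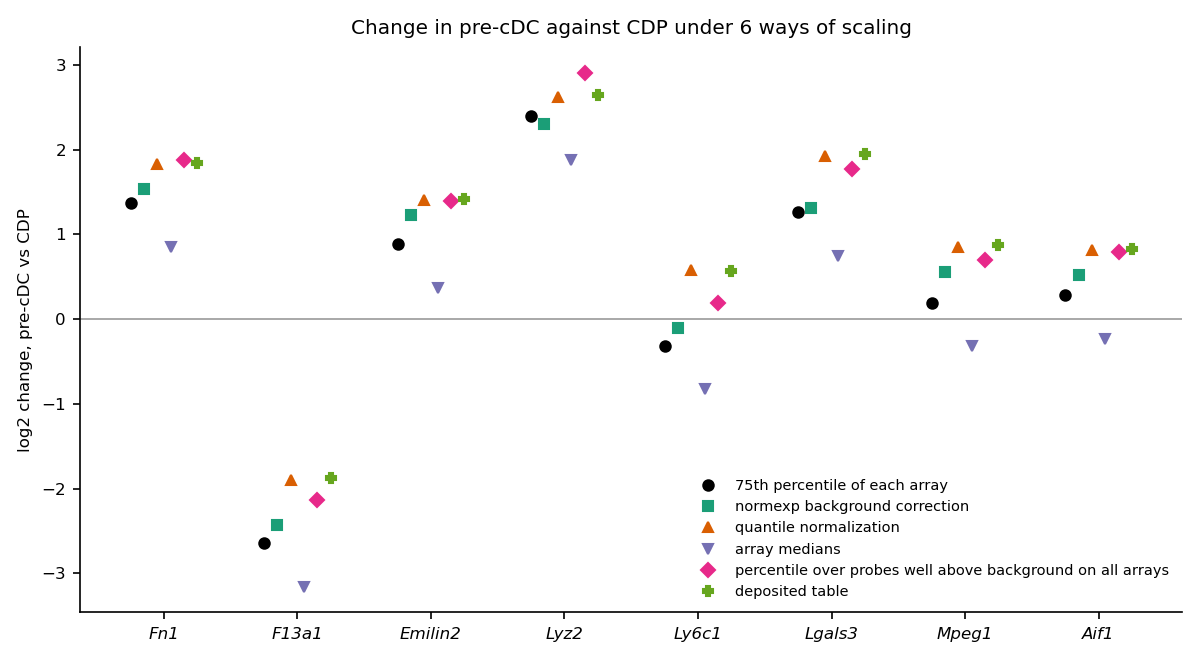
Log2 change of each gene in pre-cDC against CDP (y axis) under 6 ways of scaling the arrays. Circles are the setting used throughout, and the other symbols are the alternatives named in the legend. Fn1, Emilin2, Lyz2 and Lgals3 lie above 0 and F13a1 below 0 in all 6, while Ly6c1, Mpeg1 and Aif1 lie on both sides.

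CD8+ cDC of the spleen against marrow pre-cDC spans the last step to a mature dendritic cell and a change of organ. The matrix and clotting genes were far lower in CD8+ cDC. F13a1 was at least 593-fold lower (limma's adjusted p = 6.51e-08), Fn1 fell by 8.57 ± 0.17 (adjusted p = 2.18e-08), with 1 of the 2 CD8+ cDC arrays not well above background, and Emilin2 fell by 6.44 ± 0.08 (adjusted p = 3.49e-09). Ly6c1 fell by 5.37 ± 0.06 (adjusted p = 3.49e-09) and Lyz2 fell by 1.26 ± 0.13 (adjusted p = 6.8e-05). Aif1 went against this, higher by 2.78 ± 0.15 (adjusted p = 1.72e-06), as did Mpeg1, higher by 1.16 ± 0.06 (adjusted p = 2.18e-06). Lgals3 differed by 0.08 (95% interval -0.09 to 0.25, adjusted p = 0.374) and was not called. It was called lower after quantile normalization (-0.33, adjusted p = 0.00071) and higher with normexp background correction (0.29, adjusted p = 0.00306). Lyz1, by contrast with Lyz2, was higher in CD8+ cDC by 0.32 ± 0.08 (adjusted p = 0.00737, and 0.057 from these 4 arrays alone), so the 2 lysozyme probes disagreed in sign here.

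The count was 2 higher, 5 lower and 1 not called in CD8+ cDC, against 73.1% of 12597 genes called (39.2% higher and 33.9% lower), and the medians were -3.32 for the 8 genes and 0.08 for all genes. The split of all calls, 4936 higher and 4268 lower, was 5566 and 2759 with array medians and 5001 and 8485 with no filter on dim probes. Other monocyte and macrophage genes split more evenly, with 12 higher and 14 lower of 30 tested. With array medians the split was 15 higher and 10 lower. Cd36, the gene of a scavenger receptor, was at least 62.1-fold higher (adjusted p = 6.19e-07) and the complement gene C1qa at least 9.64-fold higher (adjusted p = 0.000117). Ccl9 fell by 6.15 ± 0.08 (adjusted p = 4.5e-09) and the chemokine receptor gene Cx3cr1 fell by 4.75 ± 0.07 (adjusted p = 8.76e-09). Macrophage and monocyte genes thus moved both ways in the same cells. Of 24 relatives and partners, 8 were higher and 14 lower. Itga8, an integrin chain gene, was at least 22.9-fold higher (adjusted p = 4.04e-06), and Itgav, of the same family, rose by 2.29 ± 0.35 (adjusted p = 0.000608). Ly6d fell by 7.91 ± 0.27 (adjusted p = 2.12e-07), and Lgals1, the gene of galectin-1, fell by 5.87 ± 0.08 (adjusted p = 5.44e-09). Erythroid and megakaryocyte genes had summed levels of 8.34 to 8.40 in CD8+ cDC and 3.53 to 3.58 in pre-cDC, with 5 to 7 and 7 of 8 well above background. Both globin genes, Hba-a1 (5.55 higher) and Hbb-bt (5.45 higher), carried that sum, while 5 of the 7 erythroid and megakaryocyte genes tested were lower. Of 12 neutrophil genes tested, 11 were lower and 1 higher in CD8+ cDC (median -2.46), with sums of 8.23 to 8.52 in CD8+ cDC and 8.74 to 8.76 in pre-cDC. Plasmacytoid dendritic cell genes had 4 of 6 tested lower and none higher (median -3.52). Basophil, mast cell and eosinophil genes had 5 of 6 tested lower and 1 higher (median -4.60). The part of any of these lists in the results was not tested.

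Neu against WT GMP compares the mature granulocyte with its progenitor gate. Lgals3 rose by 9.72 ± 0.07 (limma's adjusted p = 3.29e-10), the largest change among the 8 genes here, and Lyz2 by 6.59 ± 0.13 (adjusted p = 2.49e-09). Mpeg1 rose by 3.51 ± 0.06 (adjusted p = 1.77e-09), Ly6c1 by 2.98 ± 0.06 (change 2.985, adjusted p = 2.21e-09) and Emilin2 by 2.87 ± 0.08 (adjusted p = 9.34e-09). Fn1 was at least 3.68-fold higher (adjusted p = 1.36e-05) and Aif1 rose by 1.55 ± 0.15 (adjusted p = 1.84e-05). F13a1 alone fell, by 5.84 ± 0.26 (change -5.84, adjusted p = 1.79e-07). These are 7 higher and 1 lower, in a comparison that called 91.7% of 12520 genes (46.9% higher and 44.8% lower), so the calls themselves say little of the set. The medians were 2.93 for the 8 genes and 0.07 for all genes.

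Of the other monocyte and macrophage genes, 18 of 24 tested were higher and 6 lower in Neu (median 1.72). Ccl6 rose by 8.37 ± 0.07 (adjusted p = 3.72e-10) and Thbs1 by 6.60 ± 0.25 (adjusted p = 6.99e-08). Ms4a6c was at least 32.2-fold lower (adjusted p = 1.39e-08) and Ccl9 fell by 5.12 ± 0.08 (adjusted p = 9.7e-10). Among 25 relatives and partners, 13 were higher and 10 lower. Itga8 and Ly6d were at least 11.03-fold and 17.6-fold higher (adjusted p = 3.07e-06 and 4.67e-07), Emilin1 was at least 22.9-fold lower (adjusted p = 1.29e-07) and Lgals1 fell by 5.62 ± 0.08 (adjusted p = 7.65e-10). Galectin-1 and galectin-3 genes, and Emilin1 and Emilin2, thus moved in opposite directions in Neu. Lyz1 rose by 5.16 ± 0.08 (adjusted p = 1.01e-09), as Lyz2 did. Markers of stroma and endothelium, which can also make fibronectin and Ly6C1, had summed levels of 6.54 to 6.59 in Neu, with 7 of 9 well above background. The sums were 3.59 to 3.60 in WT GMP, with 5 or 6 of 9. Of the 7 markers tested, 5 were higher and 1 lower in Neu (median 2.45). A sum can rest on a few bright genes, and the part of these markers was not tested.

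CD8+ cDC against Neu, which share a slide and share arrays with the comparisons above, sets apart 2 of the genes. Aif1 was higher in CD8+ cDC by 7.64 ± 0.15 (limma's adjusted p = 2.95e-09) and Mpeg1 by 2.34 ± 0.06 (adjusted p = 1.47e-08). The other 6 were lower. Emilin2 fell by 8.82 ± 0.08 (adjusted p = 2.51e-10), Ly6c1 fell by 7.20 ± 0.06 (adjusted p = 1.99e-10), Lyz2 fell by 6.09 ± 0.13 (adjusted p = 4.75e-09), Fn1 fell by 2.14 ± 0.17 (adjusted p = 7.23e-06), with 1 of the 2 CD8+ cDC arrays not well above background, and Lgals3 fell by 1.77 ± 0.07 (adjusted p = 1.33e-07). F13a1 was at least 5.16-fold lower (adjusted p = 7.7e-06). In this comparison 85.3% of 12817 genes were called (42.4% higher and 42.8% lower), and the medians were -2.71 for the 8 genes and -0.06 for all. With no filter on dim probes the calls, 5439 higher and 5488 lower, were 5538 and 9427. From the 4 arrays of this slide alone, all 8 kept their call. The other monocyte and macrophage genes leaned the other way, with 19 higher and 10 lower of 31 tested and a median of 2.08. The nuclease gene Pld4 rose by 7.23 ± 0.07 (adjusted p = 3.2e-10) and Ly86 by 7.19 ± 0.19 (adjusted p = 1.23e-08). Thbs1 was at least 236-fold lower (adjusted p = 1.04e-08) and Ccl6 fell by 5.98 ± 0.07 (adjusted p = 4.2e-10). Of 23 relatives and partners, 8 were higher and 11 lower. They included Lgals3bp, which encodes a galectin-3 binding protein and rose by 3.77 ± 0.07 (adjusted p = 1.97e-09), and Ly6e, which rose by 2.96 ± 0.07 (adjusted p = 5.17e-09). The fibronectin and fibrinogen receptor chain gene Itgb3 fell by 6.45 ± 0.08 (adjusted p = 6.42e-10), and the collagen gene Col1a1 was at least 13.3-fold lower (adjusted p = 0.000116).

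CD4+ cDC can be set beside CD8+ cDC only as values, because group and array design cannot be told apart. Fn1 was at 0.50 and 0.42 in CD4+ cDC, against -3.87 and -3.41 in CD8+ cDC, and F13a1 at -1.52 and -1.02, against -5.25 and -4.48. Emilin2 was at 1.36 and 1.19 in CD4+ cDC, against -1.22 and -1.35 in CD8+ cDC, and Lyz2 at 3.53 and 2.92, against 1.87 and 1.92. The matrix genes and Lyz2 thus had higher levels on the CD4+ cDC arrays. Mpeg1 was at 4.54 and 4.07 in CD4+ cDC, against 8.39 and 8.39 in CD8+ cDC, Aif1 at 3.54 and 3.103, against 7.72 and 7.51, and Lgals3 at 4.39 and 4.16, against 7.42 and 7.37. Those 3 were lower on the CD4+ cDC arrays. Ly6c1 was at 2.64 and 2.53 in CD4+ cDC, against 3.06 and 3.05 in CD8+ cDC, a difference of -0.47 that turned to 0.57 when the percentile was taken over the probes of both designs. The other 7 differences kept their sign.

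F13a1, Mpeg1 and Ly6c1 each had a second probe. For F13a1 the dimmer probe rose in IRF8KO GMP against WT GMP by 2.30, beside 1.89 for the brighter one, and in CDP against WT GMP by 3.16, beside 3.64. In Neu against WT GMP it differed by -3.02, beside -5.84, with both Neu arrays not well above background on the dimmer probe. For Mpeg1 the dimmer probe differed by 0.90 in IRF8KO GMP against WT GMP, beside 1.08, by 5.06 in CDP against WT GMP, beside 4.49, and by 5.43 in Neu against WT GMP, beside 3.51. One WT GMP array was not well above background on it. The Ly6c1 probes differed by 0.72 and 0.67 in IRF8KO GMP against WT GMP and by -6.31 and -5.37 in CD8+ cDC against pre-cDC, with the dimmer probe first. In Neu against WT GMP the dimmer Ly6c1 probe rose less, by 1.64 beside 2.985, and its pre-cDC arrays stood apart at 6.98 and 5.90. In all 12 pairs of changes with both probes well above background on the 4 arrays, the probes had the same sign. The signs of the 6 other pairs rest in part on dim arrays, and in CD8+ cDC against Neu the dimmer F13a1 probe was not well above background on any array.

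**Figure D5:**
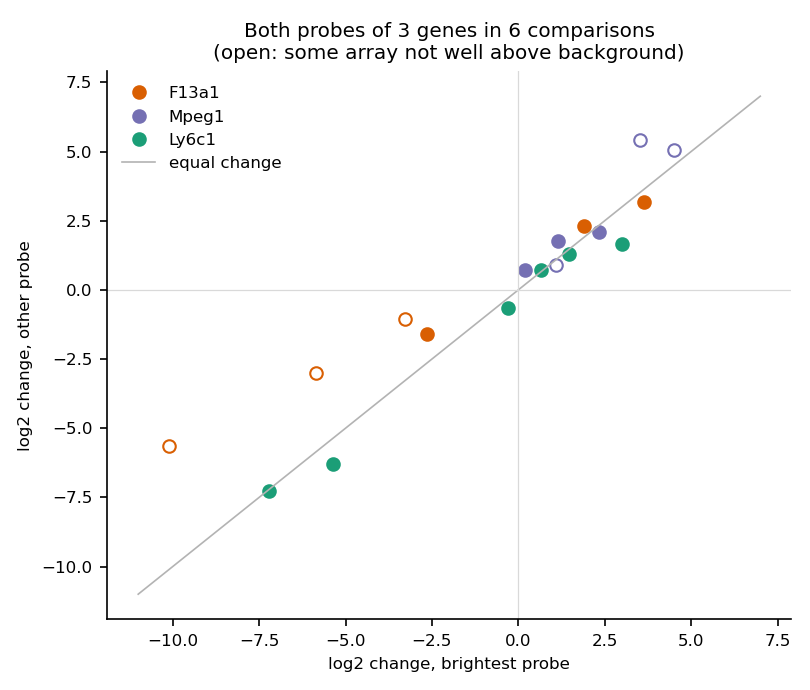
Log2 change of the dimmer probe (y axis) against that of the brightest probe (x axis) for F13a1, Mpeg1 and Ly6c1, with 1 point for each of the 6 comparisons. The grey line marks equal change. Filled points have both probes well above background on all 4 arrays, and all 12 of them have the same sign on both axes. Open points have at least 1 dim array, so their place is not exact.

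Among themselves the genes did not form 1 pattern. Over the 6 group means, which share their arrays and scaling, Pearson's r was 0.97 for Emilin2 and Ly6c1, 0.89 for Mpeg1 and Aif1, and 0.86 for Mpeg1 and Lgals3. It was -0.49 for F13a1 and Lgals3 and -0.47 for Emilin2 and Aif1, the lowest of the 28 pairs. Genes outside the set whose profile over the 12 arrays was nearest, by root mean square difference of centred log2 levels among 13544 genes, are given as a description. Nearest to Fn1 were the adenylate kinase gene Ak8 (0.76), Upk1b (1.04) and Spaca9 (1.07). For F13a1 they were Plppr3 (1.29), the glutamate receptor gene Gria3 (1.37) and the cystatin gene Cst7 (1.52). F13a1 thus had no gene as near as the others had.

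Nearest to Emilin2 were Rnf144a (0.66), Treml2 (0.75) and the integrin gene Itgb3 (0.75), and to Ly6c1 the adaptor gene Dok3 (0.45), Tbc1d2 (0.57) and again Itgb3 (0.575). Emilin2 and Ly6c1 thus shared 1 of their 3 nearest genes. For Lyz2 they were the histone gene H2bc23 (0.56), the xanthine dehydrogenase gene Xdh (0.56) and Mcemp1 (0.57). Lgals3 was nearest to Jaml (0.61), the inhibitory receptor gene Pirb (0.73) and the transcription factor gene Klf2 (1.09). Mpeg1 was nearest to the saposin precursor gene Psap (0.46), the troponin gene Tnni2 (0.49) and Ppp1r16b (0.64). Aif1 was nearest to Clec9a (0.75), the gene of a receptor for dead cells on CD8+ cDC, then to Ifi207 (1.52) and the nucleotide receptor gene P2ry6 (1.71).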

How the data were processed

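Per the labels, each RNA was amplified from low input and read in 1 colour on an Agilent array. The intensities are processed signals that Feature Extraction 10.7.3.1 background-subtracted and detrended within each array, per the file headers. The authors' deposited table holds intensities of the same arrays for 39429 probes; its sorted values match after ranking, as after quantile normalization, and the steps that made it are unknown here. Control spots and outlier spots were left out, no spot was saturated, and replicate spots were averaged as log2 signals and set against the array's 75th percentile over spots. A probe was well above background where a share of at least 0.5 of its spots were so marked. Probes were named through their accession in RefSeq (GRCm38.p6, names alone): 26762 had 1 symbol and 28919 none.

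Each comparison was a contrast of 1 limma 3.58.1 fit (lmFit, eBayes, two-sided, R 4.3.3, the data.table package at version 1.17.8) over 12 arrays, with total degrees of freedom 7.29, adjusted by Benjamini-Hochberg over the genes whose probe passed background on both arrays of either group compared, and called under 0.05. The fit was tested on simulated data. At-least folds set the brighter group's mean against the dimmer group's own signal or, where higher, the lowest signal well above background on each array. They leave out sampling error, and equal the measured fold where only the dimmer group's own signal was used. Sequences were aligned with Biopython 1.88 in Python 3.11.15, and figures drawn with matplotlib 3.10.9. The genes, lists and tests were chosen with earlier results of these data known. Genes named from the lists are the 2 largest called rises and falls in each comparison, and for each gene of the set the 3 nearest profiles. S100a8, S100a9, Hba-a1 and Hbb-bt were named after their values were seen. Gate markers are no findings between groups gated on them: Fcgr, Ly6g, Itgam and Sirpa, Cd8a and Cd4, class II genes and Itgax, Flt3, Kit and Csf1r. As the files hold no mean signal, the normexp correction, with an offset of 50, used median signals. The number of arrays and the signal over background limit the precision.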

Additional observations from a re-analysis of the deposited data

How the results depend on the processing

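The alternatives were normexp background correction, quantile normalization, array medians, a percentile over the probes every array detected, the deposited table, no filter on dim probes, the mean of all probes of a gene, the 4 compared arrays alone, a replicate block, and each array left out. Of 624 recomputed changes of the 8 genes, 607 kept direction and call, 5 lost and 5 gained a call, and 7 turned sign; the cause was not tested. Of the 5 gained calls, 4 were Aif1 in pre-cDC against CDP (0.523 with normexp, 0.813 after quantile normalization, 0.794 with the detected-probe percentile and 0.832 in the deposited table) and 1 was Lgals3 in CD8+ cDC against pre-cDC (0.29 with normexp). The turned values were Ly6c1 in pre-cDC against CDP (0.586 after quantile normalization, 0.195 with the detected-probe percentile and 0.563 in the deposited table), Mpeg1 and Aif1 there with array medians (-0.322 and -0.231), and Lgals3 in CD8+ cDC against pre-cDC (-0.329 after quantile normalization and -0.348 in the deposited table). Of 689 recomputed changes of the listed genes, run after seeing the data, 667 kept direction and call. Vcan in CDP against WT GMP turned to 0.375 with normexp and 0.044 with all probes averaged, and Csf1r in pre-cDC against CDP to 0.098 with all probes averaged. Ly6c1 in CD4+ cDC minus CD8+ cDC was 0.567 with the percentile over probes of both designs and 0.736 in the deposited tables; the median difference of the 8 genes, 0.43, became 1.466 and 1.65.

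Genes called between IRF8KO GMP and WT GMP numbered 2560, but 1160 with array medians and 1468 to 1521 with any 1 GMP array left out, while the 8 genes of the set stayed called; fewer arrays and genes were not told apart as causes. The neighbouring pairs not called, 3 of 40, were 11 with array medians and 6 with all probes averaged. The median pairwise correlation of the 8 genes over group means, 0.358, was 0.225 with normexp, 0.337 after quantile normalization, 0.328 with array medians and 0.338 with the detected-probe percentile; this was run after seeing the data. In pre-cDC against CDP, 6 or 7 genes of the set were called when an array was left out. The share of all called genes that were higher moved by over 10 percentage points in 4 comparisons. CDP against WT GMP had 5973 higher and 3113 lower, but 3645 and 5409 with the detected-probe percentile, 4482 and 4168 after quantile normalization and 4552 and 4122 in the deposited table. Pre-cDC against CDP had 2828 and 6655, but 4543 and 4322 with the detected-probe percentile and 1542 and 7987 with array medians. CD8+ cDC against pre-cDC had 4936 and 4268, but 5566 and 2759 with array medians and 5001 and 8485 with no filter on dim probes, and CD8+ cDC against Neu had 5439 and 5488, but 5538 and 9427 with no filter. The labels number the samples of each group exp1 and exp2. Deviations of same-numbered arrays correlated at -0.211 to 0.077 across groups, and at 0.048 for IRF8KO GMP and WT GMP. No strong shared shift was thus seen, but this cannot tell whether same-numbered samples came from the same experiment. With the replicate number as a block, 2137 genes were called between those groups in place of 2560, and no call of the 8 genes changed. Signal over background limits Fn1, F13a1 and Aif1 at their low ends.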
